A study of Rattus norvegicus with 70 samples.

Results

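The unfolded protein response and the ATF4 stress program were followed through 44 genes in 6 tissues of rats exposed to ozone or to air. The genes were taken as a list of symbols, and all 44 were found among the 19441 genes of every tissue table. They comprise 16 chaperones and folding enzymes of the endoplasmic reticulum (ER), 5 genes of ER-associated degradation, 6 stress sensors and membrane-bound or spliced transcription factors, 10 stress transcription factors and feedback genes, and 7 enzymes of amino acid and one-carbon metabolism.

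Unfolded proteins in the ER activate the membrane sensors IRE1 (gene Ern1), PERK (Eif2ak3) and ATF6. IRE1 splices the Xbp1 transcript into a form that encodes an active transcription factor, ATF6 is cut to release one, and PERK phosphorylates the translation factor eIF2α, which slows protein synthesis while favouring translation of ATF4. ATF4 also responds to other stresses such as amino acid shortage, in what is called the integrated stress response, and drives genes of amino acid synthesis, uptake and tRNA charging. Values per gene show neither Xbp1 splicing nor phosphorylation nor translation.

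The ozone groups came from male Wistar-Kyoto rats, an inbred strain, that had breathed 0.8 ppm ozone, an oxidant gas, for 4 h. The air groups came from males of that strain exposed to air, and both exposures supplied skeletal muscle, adipose tissue, lung, adrenal gland, liver and hypothalamus. Messenger RNA was sequenced, and 68 libraries were analysed. Muscle had 5 ozone and 6 air libraries, adipose tissue 5 of each, adrenal 6 ozone and 5 air, and the other tissues 6 of each. Whether each library of a tissue came from a different rat is not labelled, so p-values measure the spread between libraries.

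Several members carry DNA elements through which these programs are known to act, and RefSeq promoters (rat build GRCr8) of members described further on are shown for that reason. Windows from 250 bases before to 50 bases after the start were available for 37 of the 44 members. The ER stress response element (ERSE), which is CCAAT and then CCACG after a gap of any 9 bases, occurred on either strand in 22 of 33469 windows of all genes (0.0657%) and in 8 members. The stretches below lie before the start, are written 5′ to 3′ along the gene's own strand, and have each ERSE match in capitals.
Hspa5 (chr3:38452916-38453015, plus strand): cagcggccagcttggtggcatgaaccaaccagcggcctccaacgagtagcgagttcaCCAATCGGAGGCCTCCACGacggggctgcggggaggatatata
Xbp1 (chr14:84604523-84604622, plus strand): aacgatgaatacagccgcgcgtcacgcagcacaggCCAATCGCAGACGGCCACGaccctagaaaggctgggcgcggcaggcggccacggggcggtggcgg
Creld2 (chr7:121789204-121789284, plus strand): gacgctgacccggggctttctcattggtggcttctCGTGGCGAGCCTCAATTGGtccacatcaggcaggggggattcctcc
Hsp90b1 (chr7:23012344-23012473, minus strand): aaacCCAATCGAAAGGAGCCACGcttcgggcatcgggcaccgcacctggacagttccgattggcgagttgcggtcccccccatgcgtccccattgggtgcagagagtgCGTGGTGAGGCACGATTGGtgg

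The element TGATGNAA, which ATF4 binds together with C/EBP partners, occurred on either strand in 1332 windows (3.98%) and in 4 members, Herpud1, Nupr1, Trib3 and Chac1. The related ERSE-II, which is ATTGG and then CCACG after any 1 base, occurred on either strand in 17 windows (0.0508%) and in 3 members, Herpud1, Dnajb11 and Hyou1. The core TGACGTGG occurred on either strand in 199 windows (0.595%), among them that of Hyou1, where it overlaps an ERSE-II match. The cyclic AMP element TGACGTCA occurred in 612 windows (1.83%), among them that of Ppp1r15a. In the stretches below, capitals mark TGATGNAA matches, which lie on the opposite strand, and in Herpud1 also the ERSE-II match.
Herpud1 (chr19:10614817-10614897, minus strand): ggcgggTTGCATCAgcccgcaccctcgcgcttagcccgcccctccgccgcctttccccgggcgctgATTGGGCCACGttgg
Nupr1 (chr1:190645922-190645991, minus strand): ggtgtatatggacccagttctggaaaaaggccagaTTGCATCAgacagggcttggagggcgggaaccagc
Trib3 (chr3:161275534-161275593, minus strand): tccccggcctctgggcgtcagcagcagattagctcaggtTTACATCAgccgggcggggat
These matches describe letters, and no binding was measured.

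Recovered reads per library ran from 8854272 to 18848151. The marker list of each labelled tissue summed highest in the tissue of that label, although the 6 tables were normalised separately. On the first 2 principal components of adrenal, air library 8 lay at 78.1 and −68.2, whereas the other 4 air libraries lay between −57.0 and −15.5 on the first and between −31.4 and −20.7 on the second. Lung air library 2 and liver air library 1 had the highest first component of their tissues, at 66.8 and 83.5. Without lung air library 2, 9 members rose and 1 fell in ozone lungs, and without liver air library 1, 6 rose and 3 fell in ozone livers. Without adrenal air library 8, 11 rose and 1 fell in ozone adrenals, as with it, and 11 of the 12 calls were shared.

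In each of the 5 tissues with a call, 1 member had the lowest adjusted p: Creb3l1 in adrenal, Edem1 in liver, muscle and adipose tissue, and Ern1 in lung, each higher in ozone. Levels are the deposited normalised values, reads divided by a size factor per library, and are compared between libraries of 1 tissue only. Fold changes are log2 values of ozone over air on the scale log2(value + 1), given ± standard error, and a gene rose or fell where its limma p, adjusted over all genes tested in the tissue, was under 0.05. In ozone adrenals 11 of 43 members tested rose and 1 fell (27.9% called, beside 18.6% of all genes, of which 9.23% rose and 9.38% fell). In ozone lungs 10 of 43 rose and 1 fell (25.6%, beside 17.7% of all genes, 9.51% risen and 8.18% fallen). In ozone livers 5 of 40 rose and 3 fell (20%, beside 11.5% of all genes, 6.74% risen and 4.72% fallen). In ozone adipose tissue 3 of 43 rose and 1 fell (9.3%, beside 7.32% of all genes, 3.87% risen and 3.45% fallen). In ozone muscle 4 of 41 rose and 8 fell, and this 29.3% was below the 43.7% of all muscle genes, of which 21.6% rose and 22.1% fell. In ozone hypothalami 0 of 43 were called by limma, beside 1.41% of all genes, 0.789% risen and 0.624% fallen.

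The median log2 fold change of the members tested was 0.21 in adrenal, 0.14 in adipose tissue, 0.0905 in lung, 0.0546 in liver, 0.0295 in hypothalamus and −0.18 in muscle, while that of all genes ran from −0.0035 in hypothalamus to 0.016 in muscle. Over the 44 genes, 28 were called in at least 1 tissue (63.6%, beside 52.7% of all genes tested in any tissue). Of the 38 members tested in all 6 tissues 60.5% were called in at least 1, beside 63.4% of all such genes, so this share was near the background. Of the 44, 17 rose in 1 or more and fell in none, 6 fell in 1 or more and rose in none, and 5 did both, beside 24.4%, 22.8% and 5.52% of all genes. The other 16 were called in none of the 6 tissues. A member with a mean under 10 was not tested. That left out Chac1 in lung, liver, adrenal and adipose tissue, Derl3 in liver and muscle, Trib3 in hypothalamus and muscle, Phgdh and Aldh18a1 in liver, and Mthfd2 in muscle.

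**Figure D1:**
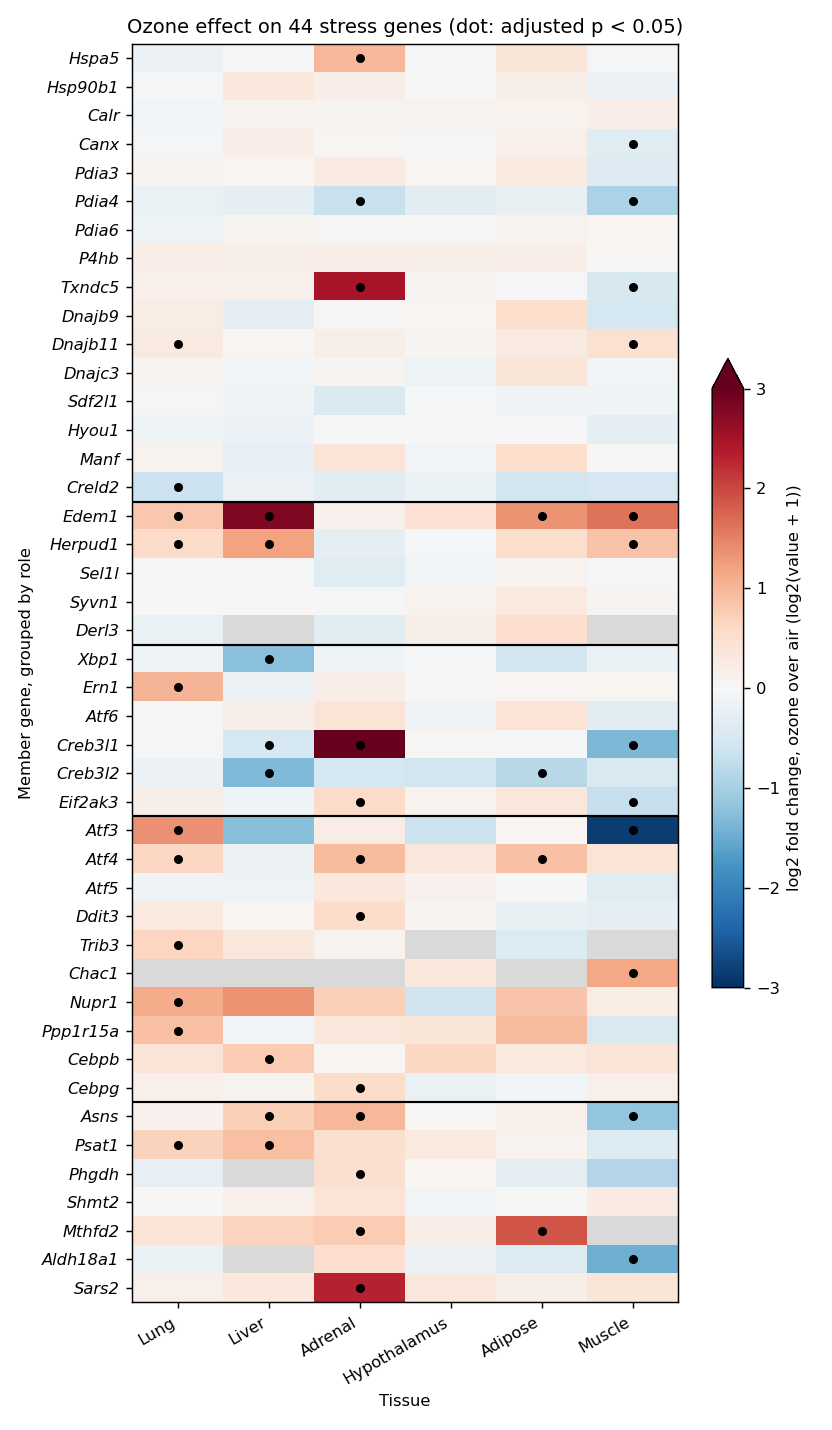
Log2 fold change of ozone over air (colour) for the 44 genes (rows, with lines between roles) in 6 tissues (columns), with a dot where the limma adjusted p was under 0.05 and grey where the gene was not tested. The strongest colours are Creb3l1, Txndc5 and Sars2 in adrenal and Edem1 in liver, all higher in ozone, and Atf3 in muscle, lower in ozone.

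Of the 16 ER chaperones and folding enzymes, 2 rose and 1 fell in ozone adrenals (18.8% called, beside 18.6% of all genes), 1 rose and 1 fell in ozone lungs (12.5%, beside 17.7%), and 1 rose and 3 fell in ozone muscle (25%, beside 43.7%). In liver, hypothalamus and adipose tissue 0 were called by limma, beside 11.5%, 1.41% and 7.32% of all genes. Hspa5, which encodes the main ER chaperone BiP, rose in ozone adrenals. Its adrenal value was 13343 to 20034 with a median of 15467 in ozone adrenals, against 8111, 8506, 6238, 8408 and 8812 in air adrenals. Every ozone adrenal stood above every air adrenal (log2 fold change 0.99 ± 0.13, limma adjusted p = 0.000301).

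No other tissue passed for Hspa5. It was 5078 to 5784 in ozone lungs and 5274 to 8038 in air lungs (fold change −0.18). It was 8922 to 11142 in ozone livers and 6502 to 13461 in air livers (−0.031). The ozone range lay inside the air range in liver, and the groups overlapped in both tissues. It was 5675 to 8219 in ozone hypothalami and 5903 to 9228 in air hypothalami (−0.057), and 3387 to 4546 in ozone muscle and 2803 to 6138 in air muscle (−0.041). In adipose tissue it was 18588, 16628, 14890.0, 15395 and 17335 in ozone adipose tissue, against 11497, 10560.0, 13019, 13517 and 16450.0 in air adipose tissue. Only the highest air library reached into the ozone range there (log2 fold change 0.36 ± 0.14, limma adjusted p = 0.16). The limma F test of whether the ozone effect on Hspa5 differed between tissues gave limma adjusted p = 2.19e-05.

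Txndc5, a thioredoxin-domain protein of the disulfide isomerase family, had a larger fold change than Hspa5 in adrenal. It was 24039.5 to 35635 with a median of 27539.8 in ozone adrenals, against 5727, 4376, 3408, 8168 and 5118 in air adrenals. The groups were far apart (log2 fold change 2.47 ± 0.20, limma adjusted p = 8.83e-06), a 5.54-fold difference. In muscle it was 573, 608, 507, 507 and 491 in ozone muscle, against 654 to 836 with a median of 750.1 in air muscle. All ozone muscle libraries lay below all air muscle libraries (log2 fold change −0.49 ± 0.11, limma adjusted p = 0.00313). The adrenal effect exceeded the muscle effect by 2.96 ± 0.17. This pair of tissues, like those of Creb3l1, Eif2ak3, Atf3 and Asns, was chosen because the gene rose in 1 and fell in the other, and the differences are given with no test. Of the plasma-cell markers, genes of cells rich in ER, 1 of 4 tested rose in ozone adrenals (beside 9.23% of all genes). That was Sdc1, a surface proteoglycan also made by epithelia, at 213 ± 46.4 in ozone adrenals and 92.9 ± 52.4 in air adrenals (SD, n = 6 and 5). Jchain (0.46), Prdm1 (−0.03) and Irf4 (−0.004) did not pass in adrenal, and Mzb1, Tnfrsf17 and Pou2af1 were too low there to test. In ozone muscle 4 of 5 tested fell (beside 22.1% of all genes), Jchain, Sdc1, Prdm1 and Irf4. The 7 genes summed to 263 to 407 in ozone adrenals and 148 to 246 in air adrenals. They summed to 51.8 to 75.9 in ozone muscle and 122 to 324 in air muscle. The part of these cells in the Txndc5 result was not tested.

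Pdia4, another disulfide isomerase, fell in ozone muscle, where it was 176, 173, 138, 151 and 139 in ozone muscle, against 211 to 397 with a median of 308 in air muscle. The muscle groups did not overlap (log2 fold change −0.96 ± 0.16, limma adjusted p = 0.000476). In adrenal it was 257 to 382 with a median of 348 in ozone adrenals, against 624, 589, 298, 608 and 593 in air adrenals. The adrenal groups overlapped through air library 8 alone (log2 fold change −0.66 ± 0.20, limma adjusted p = 0.0335). For Pdia4 in adrenal, leaving out 1 library kept the call only for ozone libraries 15 and 20 or air library 8, the adjusted p reaching 0.0878, while without air library 8 the fold change was −0.86 (limma adjusted p = 0.000398). The isomerases Pdia3, Pdia6 and P4hb were called in none of the 6 tissues. Hsp90b1, the ER member of the HSP90 family, was not called either, with fold changes from −0.18 in muscle to 0.32 in liver.

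Dnajb11, a co-chaperone of BiP, rose in ozone lungs and muscle. It was 647 to 767 with a median of 718 in ozone lungs, against 490.2 to 618 with a median of 606 in air lungs. The lung groups were separate, but the difference was small (log2 fold change 0.28 ± 0.081, limma adjusted p = 0.0276), and the call held in 8 of 12 fits that left out 1 library, the adjusted p reaching 0.0689 without ozone library 20. In muscle the groups overlapped (log2 fold change 0.45 ± 0.15, limma adjusted p = 0.0263), and the call held in 7 of 11 fits that left out 1 library. The other BiP co-factors Dnajb9, Dnajc3, Sdf2l1 and Hyou1 were called in no tissue.

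Creld2, an ER protein induced by misfolded proteins, fell in ozone lungs. It was 118 to 191 with a median of 148 in ozone lungs, against 174 to 294 with a median of 230.3 in air lungs. The groups overlapped at their edges (log2 fold change −0.64 ± 0.14, limma adjusted p = 0.00598). Its fold change was below 0 in all 6 tissues, from −0.64 in lung to −0.18 in liver, and the tissue difference did not pass (limma adjusted p = 0.582). Canx, the membrane lectin chaperone calnexin, fell in ozone muscle (log2 fold change −0.37 ± 0.13, limma adjusted p = 0.0291), a call held in 7 of 11 fits that left out 1 library. Of the 8 members with an ERSE in their window, Hspa5, Creld2, Canx and Xbp1 were called in at least 1 tissue. The other 4, Hsp90b1, Calr, Dnajc3 and Derl3, were called in none. Of all 44 members 28 were called in at least 1 tissue, beside 52.7% of all genes tested in any tissue.

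Together the 16 chaperone and folding genes took 0.700% ± 0.0565 (SD, n = 6) of recovered reads in ozone adrenals and 0.453% ± 0.0645 (SD, n = 5) in air adrenals. The adrenal ranges were 0.604% to 0.771% in ozone and 0.339% to 0.495% in air, with no overlap. Txndc5 and Hspa5 made up this gap. Txndc5 took 0.249% ± 0.0467 in ozone and 0.0513% ± 0.0184 in air adrenals, and Hspa5 0.137% ± 0.0167 in ozone and 0.0765% ± 0.0137 in air adrenals. The other 14 genes took 0.314% ± 0.0151 in ozone and 0.326% ± 0.0385 in air adrenals, with overlapping ranges. In muscle the 16 took 0.0989% ± 0.0113 (SD, n = 5) in ozone and 0.137% ± 0.0171 (SD, n = 6) in air libraries, and these ranges overlapped. Of 7 muscle identity genes, 5 rose and 1 fell in ozone muscle, beside 21.6% and 22.1% of all genes. The 7 genes summed to 3228820.0 to 5335220.0 in ozone muscle and 1542080.0 to 2722590.0 in air muscle. They took 24.2% ± 3.38 of reads in ozone and 14.0% ± 2.27 in air muscle. Of the reads outside them, the 16 genes took 0.130% ± 0.0121 in ozone and 0.159% ± 0.0205 in air muscle, with overlapping ranges. The part of the muscle identity genes in the falls of single members was not tested. In the other tissues the mean shares of the 16 were 0.356% in ozone and 0.377% in air lungs, 0.528% and 0.519% in ozone and air livers, 0.333% and 0.337% in ozone and air hypothalami, and 0.536% and 0.519% in ozone and air adipose tissue.

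**Figure D2:**
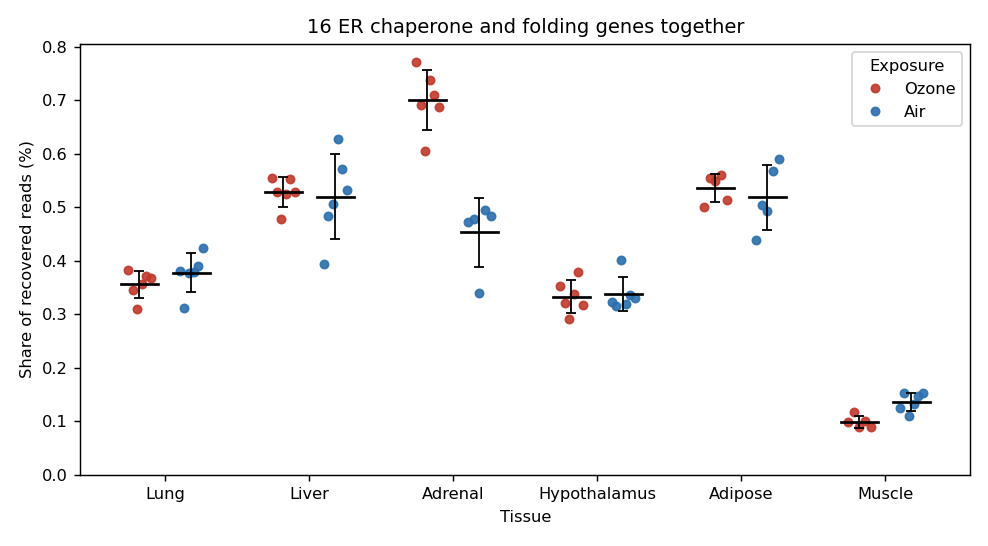
Percent of recovered reads on the 16 ER chaperone and folding genes together in each library (points), with the mean (line) and SD (bars) of each group, ozone left of air, by tissue. Adrenal groups separate, with a mean of 0.700% in ozone and 0.453% in air, a gap made up by Txndc5 and Hspa5 since the other 14 genes took 0.314% in ozone and 0.326% in air, and muscle means are 0.0989% in ozone and 0.137% in air.

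Of the 5 genes of ER-associated degradation, which carries misfolded proteins out of the ER for destruction, Edem1 and Herpud1 were called in several tissues and Sel1l, Syvn1 and Derl3 in none. Edem1, which selects misfolded glycoproteins by their sugar chains, rose in ozone liver, muscle, adipose tissue and lung. In liver it was 15127 to 42237 with a median of 28338 in ozone livers, against 2488 to 5849.6 with a median of 3365 in air livers. The 2 liver groups were far apart (log2 fold change 2.81 ± 0.28, limma adjusted p = 1.7e-05), a 7.00-fold difference.

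In muscle Edem1 was 634, 628, 739, 696 and 743 in ozone muscle, against 193 to 276 with a median of 215 in air muscle. In adipose tissue it was 2314, 3192, 2638, 2568 and 4309 in ozone adipose tissue, against 1234, 866, 1072, 1189 and 1453 in air adipose tissue. Neither tissue showed overlap (log2 fold change 1.63 ± 0.12, limma adjusted p = 1.52e-06 in muscle and log2 fold change 1.35 ± 0.19, limma adjusted p = 0.00129 in adipose tissue). In lung it was 2292 to 4785 with a median of 3384 in ozone lungs, against 1297 to 3076 with a median of 2082 in air lungs. The lung groups overlapped (log2 fold change 0.80 ± 0.22, limma adjusted p = 0.0212). The fold change was 0.12 in adrenal and 0.42 in hypothalamus, where it did not pass, and the tissue difference had limma adjusted p = 1.19e-09.

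Herpud1, a membrane protein of the degradation complex, rose in ozone liver, muscle and lung. In liver it was 4810.0 to 7347 with a median of 5795 in ozone livers, against 1504 to 4401 with a median of 2427 in air livers. In muscle it was 1331, 1900.3, 1829, 1388 and 1775 in ozone muscle, against 687 to 1244 with a median of 875 in air muscle. Both were free of overlap (log2 fold change 1.21 ± 0.26, limma adjusted p = 0.00658 in liver and log2 fold change 0.87 ± 0.15, limma adjusted p = 0.000737 in muscle). In lung it was 1886 to 2780.5 with a median of 2394 in ozone lungs, against 1092 to 1917 with a median of 1678 in air lungs, and the highest air library passed the lowest ozone library (log2 fold change 0.58 ± 0.14, limma adjusted p = 0.0118). It was not called in adipose tissue (0.52), hypothalamus (−0.028) or adrenal (−0.30), although DESeq2 called it in adipose tissue. In lung, liver and muscle, where both genes rose, the ubiquitin ligase Syvn1 and its partner Sel1l had fold changes from −0.068 to 0.088, and Hspa5 from −0.18 to −0.031.

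**Figure D3:**
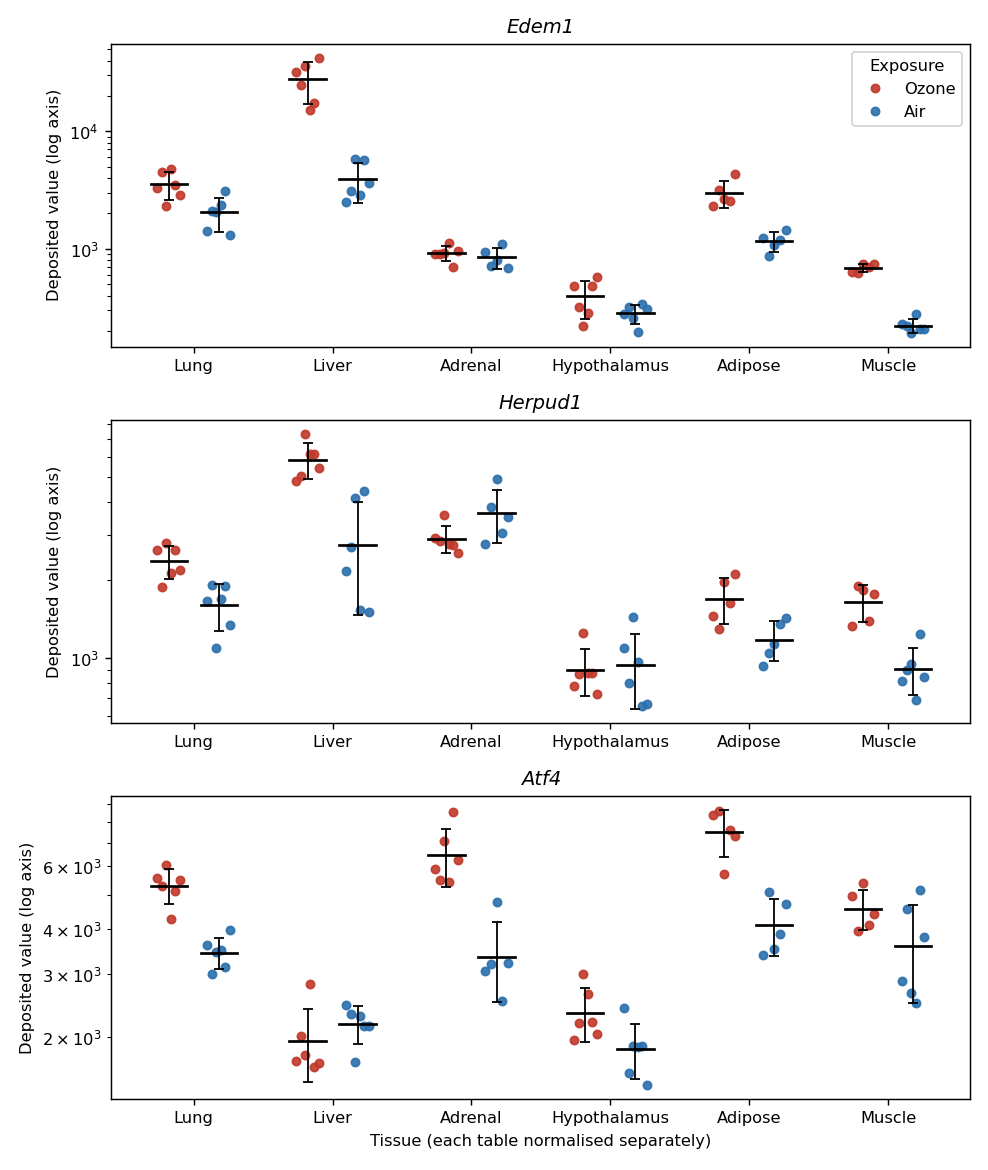
Deposited normalised value (log axis) of Edem1, Herpud1 and Atf4 in each library (points), with the mean and SD of each group, ozone left of air, by tissue. Edem1 groups separate in liver, adipose tissue and muscle, Herpud1 groups in liver and muscle, and Atf4 groups in lung, adrenal and adipose tissue.

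Of the 6 sensors and membrane-bound or spliced factors, 2 rose in ozone adrenals and 1 rose in ozone lungs, while 3 fell in ozone livers, 2 in muscle and 1 in adipose tissue. That is 33.3% called in adrenal (beside 18.6% of all genes), 16.7% in lung (17.7%), 50% in liver (11.5%), 33.3% in muscle (43.7%) and 16.7% in adipose tissue (7.32%). Of all genes, 9.23% rose in adrenal and 9.51% in lung, and 4.72% fell in liver, 22.1% in muscle and 3.45% in adipose tissue. Among the 6 members, Creb3l1 had the highest fold change of any member in any tissue. It encodes a transcription factor that is cut from the ER membrane and, in mice, is needed for collagen production in bone. In adrenal it was 3418 to 6516 with a median of 5335 in ozone adrenals, against 414, 233, 529.8, 583 and 347 in air adrenals. No air adrenal came near the ozone range (log2 fold change 3.64 ± 0.24, limma adjusted p = 2.47e-06), a 12.5-fold difference. In muscle it was 216, 208, 103, 111 and 98.3 in ozone muscle, against 182 to 501 with a median of 355 in air muscle. The muscle groups overlapped, with ozone lower (log2 fold change −1.34 ± 0.28, limma adjusted p = 0.00227).

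In liver Creb3l1 was 68.8 to 108 with a median of 98.8 in ozone livers, against 109 to 174 with a median of 136 in air livers. The groups met without overlap, and Creb3l1 fell at the edge of the threshold (log2 fold change −0.52 ± 0.16, limma adjusted p = 0.0477). For Creb3l1 in liver, leaving out 1 library kept the call only for air libraries 7 and 10, the adjusted p reaching 0.101, and the call was also lost with array weights, TMM scaling and no filter on low values. The adrenal effect exceeded the muscle effect by 4.98 ± 0.33 and the liver effect by 4.16 ± 0.32.

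Of the fibroblast markers, genes of collagen-making cells, 5 of 5 tested fell in ozone muscle (beside 22.1% of all genes). Their sum was 17713 to 75446 in ozone muscle and 71188 to 240076 in air muscle. In adrenal 0 of 5 were called by limma, with sums of 6239 to 14107 in ozone adrenals and 5759 to 12957 in air adrenals. Of the adrenal cell markers, 0 of 4 for cortex were called, and 1 of 6 for medulla rose, with medulla sums of 20586 to 35833 in ozone adrenals and 11280.0 to 25779 in air adrenals. Markers of other tissues and cells also rose in ozone adrenals, where 9.23% of all genes did. Among them were the fat genes Lep (1.52) and Cidec (1.23), 2 of 6 of that list, and the lung gene Ager (1.84), 1 of 6. The other lung genes did not pass but had fold changes from 2.22 to 2.77. Lung identity genes summed to 193 to 4215 in ozone adrenals and 38.8 to 1095 in air adrenals. The endothelial gene Kdr (0.48) was 1 of 5 and the monocyte gene Cd14 (0.67) 1 of 7, and the others of both lists did not pass. Of the pancreatic list only Ctrb1 (3.12) was tested, at 17.8 ± 11.2 in ozone and 1.16 ± 1.10 in air adrenals (SD, n = 6 and 5). Only its ozone libraries brought it over the minimum mean of 10. Fat identity genes summed to 2938 to 9153 in ozone adrenals and 1884 to 4453 in air adrenals. In bulk tissue, fewer cells of a type and less RNA per cell cannot be told apart, and the part of cell make-up in the Creb3l1 results was not tested.

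Ern1, which encodes IRE1, rose in ozone lungs, where it was 2317 to 2991 with a median of 2587 in ozone lungs, against 933 to 1627 with a median of 1282 in air lungs. The groups were well separated (log2 fold change 1.02 ± 0.12, limma adjusted p = 4.72e-05). In the other 5 tissues its fold change lay between −0.17 in liver and 0.20 in adrenal, and the tissue difference had limma adjusted p = 2.86e-05. In the same ozone lungs 5 of 6 B-cell, 4 of 8 T- and NK-cell and 4 of 5 neutrophil markers tested fell, and 3 of 7 macrophage markers rose and 2 fell. Of all genes tested in lung, 9.51% rose and 8.18% fell. B-cell markers summed to 486 to 693 in ozone lungs and 1138 to 2512 in air lungs, and neutrophil markers to 432 to 541 in ozone lungs and 727 to 895 in air lungs. The part of these cells in the lung results was not tested.

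Xbp1, the transcript that IRE1 splices, fell in ozone livers, where it was 651 to 1036 with a median of 739 in ozone livers, against 1360.5 to 2455 with a median of 1833 in air livers. All ozone livers lay below all air livers (log2 fold change −1.25 ± 0.16, limma adjusted p = 0.000157). It was not called elsewhere. It was 1438 to 1700.5 in ozone lungs and 1529 to 1919 in air lungs (−0.14), and 630.5 to 990.3 in ozone hypothalami and 586 to 1030.3 in air hypothalami (−0.055). It was 1286 to 2658 in ozone adipose tissue and 1791 to 3725 in air adipose tissue (−0.54), and 351 to 471 in ozone muscle and 341 to 656 in air muscle (−0.20). In adrenal it was 1134 to 1479 with a median of 1186 in ozone adrenals, against 1228, 1189, 2120.4, 1265 and 1178 in air adrenals. Air library 8 alone stood high there, and the fold change of −0.13 became 0.027 without it. The groups overlapped in all 5 of these tissues, and the tissue difference had limma adjusted p = 0.00015.

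Creb3l2, a relative of Creb3l1, fell in ozone livers and adipose tissue. In liver it was 87.9 to 257 with a median of 166 in ozone livers, against 219 to 641 with a median of 454 in air livers. In adipose tissue it was 458, 439, 380.0, 529 and 652 in ozone adipose tissue, against 1023, 731, 1029, 719.7 and 832 in air adipose tissue. The liver groups overlapped (log2 fold change −1.34 ± 0.29, limma adjusted p = 0.0084), and the adipose groups did not (log2 fold change −0.82 ± 0.17, limma adjusted p = 0.0118). Its fold change was below 0 in all 6 tissues, and the tissue difference did not pass (limma adjusted p = 0.123).

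Eif2ak3, which encodes the eIF2α kinase PERK, rose in ozone adrenals and fell in ozone muscle. In adrenal it was 268 to 350.1 with a median of 313 in ozone adrenals, against 191, 228, 169, 262 and 196 in air adrenals. The adrenal groups did not overlap (log2 fold change 0.58 ± 0.13, limma adjusted p = 0.00889). In muscle it was 128, 145, 91.8, 80.5 and 91.9 in ozone muscle, against 137 to 196 with a median of 179 in air muscle. One ozone muscle library reached the air range (log2 fold change −0.69 ± 0.18, limma adjusted p = 0.00649), and the adrenal effect exceeded the muscle effect by 1.27 ± 0.18. The sensor gene Atf6 was called in none of the 6 tissues, with fold changes from −0.33 in muscle to 0.41 in adrenal.

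**Figure D4:**
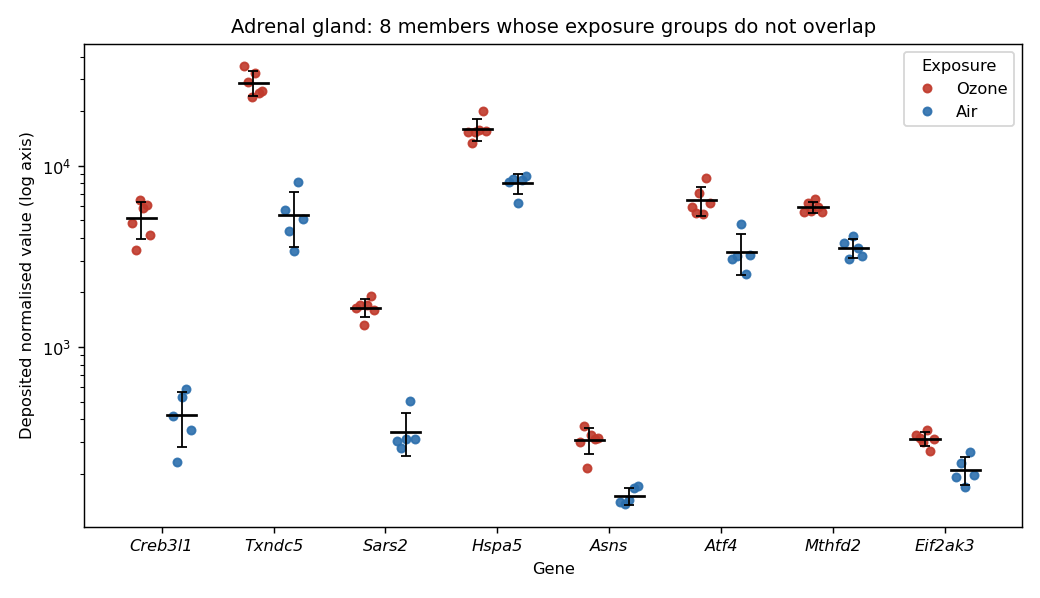
Deposited normalised value (log axis) in adrenal of the 8 members whose ozone and air libraries did not overlap, with points for libraries and the mean and SD of each group, ozone left of air. Creb3l1 averaged 5137 in ozone and 421 in air, Txndc5 28737 and 5359, and Sars2 1652 and 341.

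Those 8 genes were Creb3l1, Txndc5, Sars2, Hspa5, Asns, Mthfd2, Atf4 and Eif2ak3, and 0 members tested had every ozone adrenal below every air adrenal. Of all genes tested in adrenal, 6.49% had every ozone library above every air library and 6.39% every one below. Each of the 8 was called in all 11 fits that left out 1 library. Groups were separate with ozone above air for 5 members in lung (5.54% of all genes), 4 in liver (4.77%), 6 in adipose tissue (4.38%), 2 in muscle (12.8%) and 1 in hypothalamus (1.17%). They were separate with ozone below air for 2 members in liver (2.85% of all genes), 1 in adipose tissue (4.43%), 4 in muscle (11.5%), and 0 in lung (4%) and hypothalamus (0.979%).

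Atf4, the central transcription factor of the integrated stress response, rose in ozone lungs, adrenals and adipose tissue. In lung it was 4281 to 6072 with a median of 5392 in ozone lungs, against 2999.6 to 3970.3 with a median of 3472 in air lungs. In adrenal it was 5441 to 8529 with a median of 6068 in ozone adrenals, against 3052, 3193, 4782, 2520.0 and 3227 in air adrenals. Ozone and air libraries did not overlap (log2 fold change 0.62 ± 0.10, limma adjusted p = 0.000429 in lung and log2 fold change 0.96 ± 0.17, limma adjusted p = 0.00212 in adrenal). In adipose tissue it was 8343, 8576, 5711, 7594 and 7316 in ozone adipose tissue, against 3387, 5095, 3516, 3874 and 4717 in air adipose tissue, again with no overlap (log2 fold change 0.87 ± 0.16, limma adjusted p = 0.00716).

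Atf4 was not called in the other 3 tissues. It was 1647 to 2810.2 in ozone livers and 1702 to 2459 in air livers (log2 fold change −0.18 ± 0.14, limma adjusted p = 0.52). It was 1962 to 2998 in ozone hypothalami and 1464 to 2402 in air hypothalami (log2 fold change 0.34 ± 0.14, limma adjusted p = 0.269). It was 3944 to 5389 in ozone muscle and 2487 to 5167 in air muscle (log2 fold change 0.39 ± 0.19, limma adjusted p = 0.104). The groups overlapped in each, and the limma test of the tissue difference had limma adjusted p = 0.000156.

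Of the 9 stress factors and feedback genes tested in lung, Atf4 included, 5 rose and 0 fell, beside 9.51% and 8.18% of all genes. Of 9 tested in each other tissue, 3 rose in adrenals, 1 in livers and 1 in adipose tissue (beside 9.23%, 6.74% and 3.87%). In muscle 1 rose and 1 fell (beside 21.6% and 22.1%), and in hypothalamus 0 were called by limma. Nupr1, a small stress-induced chromatin protein, was 159.9 to 329 with a median of 217 in ozone lungs, against 70.3 to 147 with a median of 101 in air lungs. The lung groups were separate (log2 fold change 1.12 ± 0.18, limma adjusted p = 0.000736). In liver Nupr1 was 314 to 1008 with a median of 530.5 in ozone livers, against 48.4 to 313 with a median of 262 in air livers. The liver groups met without overlap, and limma did not call it (log2 fold change 1.36 ± 0.43, limma adjusted p = 0.0569), whereas edgeR (adjusted p = 0.0424) and DESeq2 (adjusted p = 0.00806) did.

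Ppp1r15a, the phosphatase subunit GADD34 that reverses eIF2α phosphorylation, rose in ozone lungs, where it was 714 to 976 with a median of 900.3 in ozone lungs, against 298 to 807 with a median of 466 in air lungs. The groups overlapped slightly (log2 fold change 0.89 ± 0.20, limma adjusted p = 0.00637). Trib3, a pseudokinase that restrains ATF4, was 159 to 191 with a median of 179 in ozone lungs, against 84.4 to 188 with a median of 109 in air lungs. One air library reached the ozone range (log2 fold change 0.65 ± 0.17, limma adjusted p = 0.0135). Of the 4 members with a TGATGNAA match, Herpud1, Nupr1 and Trib3 rose in ozone lungs and Chac1 was too low there to test. In lung 10 of the 43 members tested rose, beside 9.51% of all genes. By limma, Nupr1 and Trib3 were called in no other tissue. In muscle Chac1, a glutathione-degrading enzyme induced by ATF4, was 614, 730.2, 575, 316 and 536 in ozone muscle, against 131 to 391 with a median of 262 in air muscle. It rose with overlapping groups (log2 fold change 1.15 ± 0.29, limma adjusted p = 0.00678).

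Atf3, a stress-induced factor of the ATF family, rose in ozone lungs and fell in ozone muscle, with wide spread. In lung it was 539 to 825 with a median of 687 in ozone lungs, against 130.4 to 760.0 with a median of 279 in air lungs. It passed limma (log2 fold change 1.36 ± 0.41, limma adjusted p = 0.0367) but neither edgeR (adjusted p = 0.113) nor DESeq2 (adjusted p = 0.0741). For Atf3 in lung, leaving out 1 library kept the call only for ozone library 16 or air libraries 1, 7 and 10, the adjusted p reaching 0.0783. In muscle it was 77.1, 122, 409, 113 and 36.3 in ozone muscle, against 157 to 5684 with a median of 882 in air muscle. The groups overlapped (log2 fold change −2.85 ± 0.81, limma adjusted p = 0.0125), and without air library 9, the highest, the fold change was −2.28 (limma adjusted p = 0.0288). The lung effect exceeded the muscle effect by 4.21 ± 0.79.

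Ddit3, which encodes CHOP, a factor tied to cell death in lasting stress, rose in ozone adrenals. It was 102 to 155 with a median of 134 in ozone adrenals, against 98.4, 94.4, 62.2, 93.1 and 103 in air adrenals. The groups overlapped narrowly (log2 fold change 0.55 ± 0.17, limma adjusted p = 0.0363). For Ddit3 in adrenal, leaving out 1 library kept the call only for ozone library 16 or air libraries 8 and 11, the adjusted p reaching 0.0774.

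Ddit3 was not called in the other 5 tissues, and its groups overlapped in each. It was 91.8 to 135 in ozone lungs and 55.3 to 125 in air lungs (0.29). It was 43.5 to 91.8 in ozone livers and 27.3 to 85.0 in air livers (0.062), and 119 to 160.3 in ozone hypothalami and 109 to 165 in air hypothalami (0.081). Its fold change was near 0 in liver and hypothalamus. It was 225 to 353 in ozone adipose tissue and 219 to 483 in air adipose tissue (−0.23), and 58.5 to 101 in ozone muscle and 43.4 to 119.9 in air muscle (−0.28). The ATF4 partner Cebpg rose in ozone adrenals (log2 fold change 0.55 ± 0.14, limma adjusted p = 0.0152). Cebpb, a factor of the same family, rose in ozone livers, where it was 979 to 1729 with a median of 1360.3 in ozone livers, against 632 to 1201 with a median of 718 in air livers (log2 fold change 0.76 ± 0.18, limma adjusted p = 0.0145). Atf5 was called in none of the 6 tissues.

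The amino acid and one-carbon enzymes, known ATF4 targets for the most part, had 4 of 7 risen in ozone adrenals, beside 9.23% of all genes. In ozone muscle 2 of 6 tested fell (33.3%, beside 22.1% of all genes) and 0 rose (beside 21.6%). In livers 2 of 5 tested rose, in lungs 1 of 7 and in adipose tissue 1 of 7, beside 6.74%, 9.51% and 3.87% of all genes. In hypothalamus 0 of 7 were called by limma. Asns, asparagine synthetase, was 215 to 368 with a median of 312 in ozone adrenals, against 139, 136, 142, 166 and 171 in air adrenals. The adrenal groups did not overlap (log2 fold change 1.00 ± 0.15, limma adjusted p = 0.000548). In muscle it was 30.2, 21.2, 22.7, 13.2 and 17.1 in ozone muscle, against 30.9 to 69.0 with a median of 48.3 in air muscle. All ozone muscle libraries were below all air libraries (log2 fold change −1.18 ± 0.26, limma adjusted p = 0.00314). In liver it was 26.8 to 54.8 with a median of 36.2 in ozone livers, against 18.4 to 27.4 with a median of 23.1 in air livers, with a slight overlap (log2 fold change 0.72 ± 0.20, limma adjusted p = 0.0321). For Asns in liver, leaving out 1 library kept the call only for ozone libraries 18 and 19 or air libraries 1 and 9, the adjusted p reaching 0.0833. The adrenal effect exceeded the muscle effect by 2.18 ± 0.24, and the liver effect exceeded it by 1.90 ± 0.24.

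**Figure D5:**
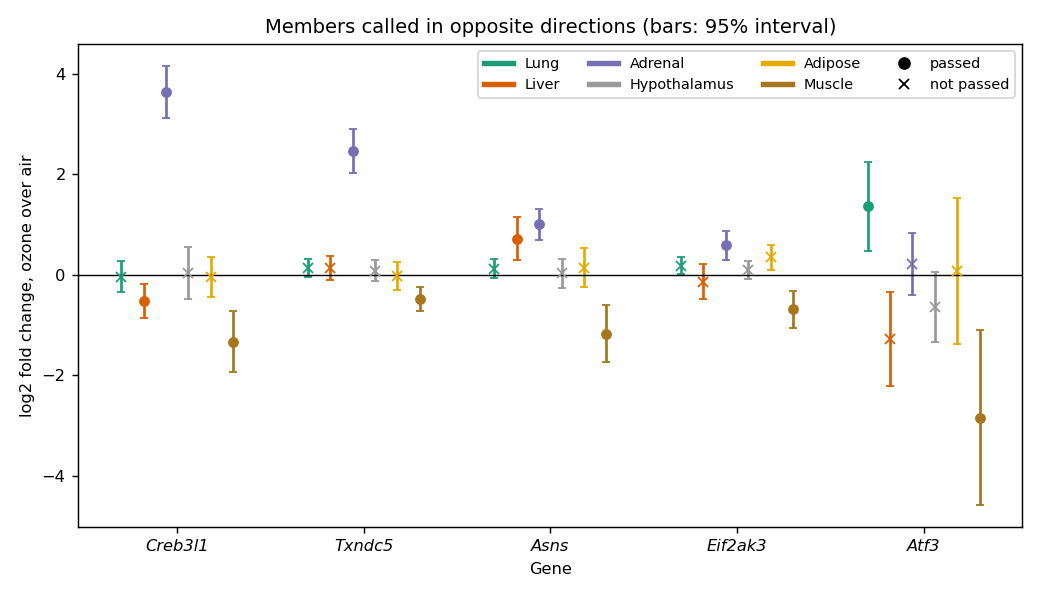
Log2 fold change of ozone over air with its 95% interval (bars) in each tissue for the 5 members that rose in 1 tissue and fell in another, with dots where the limma adjusted p was under 0.05 and crosses where it was not. Creb3l1, Txndc5, Asns and Eif2ak3 are above 0 in adrenal and below 0 in muscle, and Atf3 is above 0 in lung and below 0 in muscle.

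Mthfd2, a mitochondrial folate enzyme, rose in ozone adrenals and adipose tissue. In adrenal it was 5566 to 6575 with a median of 5783 in ozone adrenals, against 3772, 3069.8, 4091, 3508 and 3171 in air adrenals. In adipose tissue it was 49.3, 56.7, 86.0, 159 and 96.8 in ozone adipose tissue, against 15.9, 19.4, 27.8, 33.0 and 16.6 in air adipose tissue. Neither tissue showed overlap (log2 fold change 0.75 ± 0.11, limma adjusted p = 0.000523 in adrenal and log2 fold change 1.88 ± 0.33, limma adjusted p = 0.00612 in adipose tissue).

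Psat1, an enzyme of serine synthesis, rose in ozone lungs and livers. In lung it was 403 to 517 with a median of 507 in ozone lungs, against 253 to 364 with a median of 296 in air lungs. In liver it was 57.3 to 103 with a median of 70.1 in ozone livers, against 28.3 to 54.3 with a median of 42.8 in air livers. The groups were separate in both (log2 fold change 0.68 ± 0.10, limma adjusted p = 0.000327 in lung and log2 fold change 0.89 ± 0.20, limma adjusted p = 0.00939 in liver). In hypothalamus it was 2549 to 3247 with a median of 2829 in ozone hypothalami, against 2116 to 2542 with a median of 2370.5 in air hypothalami. These groups met without overlap too, but limma did not call Psat1 there (log2 fold change 0.29 ± 0.094, limma adjusted p = 0.175).

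Phgdh, the enzyme before Psat1 in serine synthesis, rose in ozone adrenals with overlapping groups (log2 fold change 0.49 ± 0.16, limma adjusted p = 0.0488). For Phgdh in adrenal, the call held in 2 of 11 fits that left out 1 library, the adjusted p reaching 0.123 without air library 2, and it was also lost with TMM scaling and with no filter on low values. Aldh18a1, an enzyme of proline synthesis, fell in ozone muscle, where it was 27.9, 39.4, 21.6, 19.9 and 15.0 in ozone muscle, against 41.2 to 105 with a median of 66.4 in air muscle. The muscle groups did not overlap (log2 fold change −1.46 ± 0.27, limma adjusted p = 0.00087). Shmt2, another mitochondrial folate enzyme, was called in none of the 6 tissues.

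Sars2, the mitochondrial seryl-tRNA synthetase, was called in adrenal alone, where it was 1315 to 1922 with a median of 1677 in ozone adrenals, against 302, 278, 311, 502 and 310.1 in air adrenals. The groups were well apart (log2 fold change 2.30 ± 0.16, limma adjusted p = 3.09e-06), a 4.93-fold difference. In the other tissues its fold change lay between 0.16 in lung and 0.35 in muscle, and the tissue difference had limma adjusted p = 3.16e-11. The sources used here do not give the strand setting of the counting, and values of members that overlap another gene are therefore uncertain. In the RefSeq annotation 17 members overlap another gene, among them Herpud1, Atf3 and Canx. For 7 of them an overlapping gene also has values here: Sars2, Creld2, Pdia3, Syvn1, Atf5, Ddit3 and Shmt2. Ccer2, which overlaps Sars2, averaged 8.02 ± 3.24 in ozone adrenals and 3.01 ± 0.846 in air adrenals (SD, n = 6 and 5).

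In hypothalamus, where limma called 0 members, 6 had an unadjusted p under 0.05, 5 of them higher and 1 lower in ozone, and 14.8% of all genes reached that mark. There edgeR called 0 members as well, and DESeq2 and limma with array weights each called 2, Psat1 as higher and Creb3l2 as lower in ozone. Over the 38 members tested in all 6 tissues, the ozone effect differed between tissues for 18 by the limma F test, beside 41.9% of all genes. Besides those with a value above, these included Cebpg (limma adjusted p = 0.00222), Pdia3 (limma adjusted p = 0.0157) and Dnajc3 (limma adjusted p = 0.0444).

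Other genes of the same pathways were read from lists chosen by function, with earlier results of these data known. Of 43 other ATF4 and integrated stress response genes, 15 of 42 tested rose and 0 fell in ozone adrenals, 13 of 42 rose and 1 fell in lungs, 10 of 40 rose and 2 fell in livers, 11 of 41 rose and 1 fell in adipose tissue, and 18 of 39 rose and 8 fell in muscle. In hypothalamus 0 of 41 were called by limma. The share called was 35.7% in adrenal (beside 18.6% of all genes), 33.3% in lung (17.7%), 30% in liver (11.5%), 29.3% in adipose tissue (7.32%) and 66.7% in muscle (43.7%). Slc3a2, the heavy chain of amino acid transporters, had a log2 fold change of 0.86 in adrenal, 0.83 in liver and 1.00 in adipose tissue. Its partner Slc7a5, a carrier of large neutral amino acids, had 2.21 in adipose tissue and 0.93 in lung, where it rose, and −0.94 in liver, where it fell. Ddit4, an inhibitor of mTORC1, had 4.12 in muscle and 1.46 in lung. Got1, the cytosolic aspartate aminotransferase, had 2.85 in liver, and Slc1a4, a carrier of neutral amino acids, 1.38. Slc1a4 also rose in ozone adipose tissue and fell in ozone muscle. The list's median log2 fold change was 0.37 in adrenal, 0.27 in lung, 0.25 in liver, 0.28 in adipose tissue, 0.34 in muscle and 0.0662 in hypothalamus.

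Also lowest in adjusted p were the tRNA charging and export genes Eprs (1.01) and Xpot (0.93) in adrenal and the cationic amino acid carrier Slc7a1 in lung (0.86). In muscle these were the translation repressor Eif4ebp1 (1.74) and the aminotransferase Gpt2 (1.73). In adipose tissue the growth arrest gene Gadd45a was among them. Gadd45a fell there (−0.97) but rose in ozone lungs, adrenals and muscle. Slc7a1 also rose in ozone adipose tissue and fell in ozone muscle. Of 44 other ER quality-control genes, 5 of 44 rose and 1 fell in ozone lungs, 2 and 2 of 44 in livers, 3 and 3 of 44 in adrenals, and 3 and 0 of 43 in adipose tissue. In ozone muscle 2 of 43 rose and 14 fell, among them the signal peptidase subunit Spcs3 (−1.02), the vesicle coat gene Sec24d (−1.05) and the isomerase Pdia5 (−0.87). In hypothalamus 0 of 44 were called by limma. The share called in either direction was below that of all genes in each tissue. It was 13.6% in lung, 9.09% in liver, 13.6% in adrenal, 6.98% in adipose tissue and 37.2% in muscle. The 14 of 43 that fell in muscle stand beside 22.1% of all genes, and the 2 that rose beside 21.6%. The median log2 fold change of this list was −0.17 in muscle and between 0.028 in hypothalamus and 0.12 in adipose tissue elsewhere. Dnajb12, an ER-membrane co-chaperone, rose in ozone lungs (0.71), livers (0.53), adipose tissue (0.56) and muscle (0.38). Selenos, a selenoprotein of ER-associated degradation, rose in ozone lungs (0.39) and adipose tissue (0.71). Pdia5 fell in ozone lungs (−0.41) and livers (−0.54), Cdk2ap2 in livers (−1.12) and adrenals (−0.73), and the Edem1 relative Edem2 in adrenals (−0.76). Sec24d rose in ozone livers (0.68) and adipose tissue (0.66), and Sec61a1, the core of the ER translocation channel, rose in ozone adrenals (0.68).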

How the data were processed

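Messenger RNA of 6 tissues was sequenced, with extraction kits that differed between tissues per the labels' protocols, and 68 of 70 labelled libraries were analysed. Muscle ozone 17 and adrenal air 7 were not used here. Per the submitters' processing notes the authors used Partek, DESeq2 and genome build rn6, with the aligner, counter, strand setting and versions not given in the sources used here. The authors deposited 1 normalised signal value per gene and library. Values under 100 reads proved to be whole read counts divided by 1 size factor per library (100% of them whole within 0.01). Larger values were taken as the same without this check. Of 19465 entries per table, 24 with date-like names were left out.

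Values were tested per tissue as log2(value + 1) for genes with a mean of at least 10, with limma 3.58.1 (trend and robust moderation) in R 4.3.3 and Benjamini-Hochberg adjustment over all genes tested. Tissue differences were tested by a limma F test over 11111 genes in all 68 libraries. The fits were tested on simulated data. Alternatives were pseudocounts of 0.5 and 5, a minimum mean of 50 or none, moderation without the trend and robust options, array weights and TMM scaling. Further ones were edgeR 4.0.16 and DESeq2 1.42.0 on recovered reads, and leaving out each library. Values in every library or as ranges were given for Hspa5, Xbp1, Atf4 and Ddit3 and for up to 5 risen and 3 fallen members per tissue by adjusted p, plus members called in opposite directions. Of the other lists, up to 3 genes per tissue by adjusted p were named. Members and lists were chosen with earlier results of these data known. Reads per library, 8854272 to 18848151, bound the precision for counting error only.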

Additional observations from a re-analysis of the deposited data

Results flagged for a closer look

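Of 116 groups of 4 to 10 libraries examined for the members described, 11 held 1 library whose gap to the others was large for the group's range, and chance flags about 1 in 20 groups. In adrenal, air library 8 had 6238 for Hspa5 beside 8111 to 8812 in the other air libraries, 2120.4 for Xbp1 beside 1178 to 1265, 62.2 for Ddit3 beside 93.1 to 103, and 298 for Pdia4 beside 589 to 624. Without it, the log2 fold change of Hspa5 was 0.90 (limma adjusted p = 0.000195), that of Ddit3 0.43 (limma adjusted p = 0.0478), that of Pdia4 −0.86 (limma adjusted p = 0.000398) and that of Xbp1 0.027 (limma adjusted p = 0.868). Adrenal air library 9 had 502 for Sars2 beside 278 to 311, and adrenal ozone library 19 had 20034 for Hspa5 beside 13343 to 15790.0.

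Muscle ozone library 16 had 409 for Atf3 beside 36.3 to 122 in the other ozone libraries, and muscle air library 9 had 5684 beside 157 to 1476 in the other air libraries. Liver ozone library 18 had 2810.2 for Atf4 beside 1647 to 2007, and 68.8 for Creb3l1 beside 96.9 to 108. Without that library the log2 fold change of Creb3l1 in liver was −0.43 (limma adjusted p = 0.0897). Lung ozone library 15 had 135 for Ddit3 beside 91.8 to 107.

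The ozone effect differed between tissues by the limma F test for 15 of the 21 described members tested in all 6 tissues, beside 41.9% of all genes. The members described were chosen in part by adjusted p within a tissue or by calls in opposite directions, which bears on this count. The adjusted p was 6.42e-21 for Txndc5, 3.32e-18 for Creb3l1, 3.16e-11 for Sars2, 1.08e-09 for Asns, 1.19e-09 for Edem1, 4.79e-07 for Eif2ak3, 2.19e-05 for Hspa5, 2.86e-05 for Ern1, 6.23e-05 for Herpud1, 0.00015 for Xbp1, 0.000156 for Atf4, 0.000392 for Atf3, 0.000578 for Psat1, 0.00813 for Ppp1r15a and 0.0323 for Pdia4.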

How the results depend on the processing

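Calls of members changed by more than 1.5 times under 2 alternatives: in hypothalamus array weights and DESeq2 each called 2 members in place of 0, and in adipose tissue DESeq2 called 7 in place of 4. Fits without 1 library called 10 to 15 members in muscle, 4 to 5 in adipose tissue, 9 to 13 in adrenal, 9 to 12 in lung, 6 to 9 in liver and 0 in hypothalamus. Counts over all genes moved by over 1.5 times with array weights in lung (3941, against 2623), liver (2302, against 1440), adrenal (4822, against 2609) and hypothalamus (723, against 215), with DESeq2 in hypothalamus (551) and adipose tissue (1616, against 1043), and without 1 library in hypothalamus (105 to 286) and adipose tissue (609 to 1224). Among the members described, changes of sign were seen only for fold changes that had not passed: Ddit3 in liver had −0.14 with array weights and −0.13 to 0.19 without 1 library, Hspa5 had −0.16 to 0.054 in liver, −0.13 to 0.034 in hypothalamus and −0.14 to 0.083 in muscle, and Xbp1 had −0.18 to 0.027 in adrenal and −0.14 to 0.029 in hypothalamus. The cause was not tested. In a sum chosen after the data were seen, the chaperone share in adrenal without Txndc5 and Hspa5 differed by −0.0116 percentage points (ozone minus air), against 0.247 with them. No paired analysis was possible because ozone and air libraries of a tissue share no numbers. For the tissue difference, equal numbers across tissues as a replicate block gave 18 of 38 members, as without the block (correlation 0.0024). A minimum mean of 50 gave 16 of 33, and leaving out muscle 16 of 39, where Pdia3 (limma adjusted p = 0.640), Pdia4 (limma adjusted p = 0.559) and Ppp1r15a (limma adjusted p = 0.123) no longer passed.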

Other observations

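Cytosolic heat-shock genes, which serve protein folding outside the ER under the factor HSF1, fell more often than they rose in adrenals, lungs, livers and muscle. In ozone adrenals 1 of 19 tested rose and 6 fell, with log2 fold changes of −1.35 for the HSP70 co-chaperone Dnajb1 and −1.08 for the exchange factor Hsph1, while the small heat-shock gene Hspb8 rose (0.93). In ozone lungs 1 of 19 rose and 6 fell, in livers 0 of 17 rose and 2 fell, and in muscle 0 of 20 rose and 6 fell. In ozone hypothalami 1 of 19 rose and 1 fell, Chordc1 (−1.07), and in adipose tissue 1 of 19 rose and 0 fell. The share called was 36.8% in adrenal (beside 18.6% of all genes), 36.8% in lung (17.7%) and 10.5% in hypothalamus (1.41%). In liver it was 11.8% (beside 11.5%), in muscle 30% (beside 43.7%) and in adipose tissue 5.26% (beside 7.32%). The liver and muscle calls were all falls, and 4.72% and 22.1% of all genes fell there. The adipose call was a rise, and 3.87% of all adipose genes rose. The lens and muscle chaperone Cryab had −1.84 in muscle, where it fell, and 0.94 in hypothalamus and 0.66 in adipose tissue, where it rose. Of 11 mitochondrial chaperones and proteases, 3 rose in livers, 1 rose and 1 fell in adrenals, 2 rose in adipose tissue, 1 rose in lungs, 3 rose and 1 fell in muscle, and 0 were called in hypothalamus. The share called was 27.3% in liver (beside 11.5% of all genes) and 18.2% in adipose tissue (7.32%). It was near or below that of all genes in adrenal (18.2%, beside 18.6%), lung (9.09%, beside 17.7%) and muscle (36.4%, beside 43.7%). Among these 11 genes the mitochondrial HSP70 gene Hspa9 rose in livers (0.49), adrenals (0.56) and adipose tissue (0.47).

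The next values were looked up after those of Sars2 had been seen. Of 11 cytosolic aminoacyl-tRNA synthetase genes, 10 rose in ozone muscle, 5 in adrenals, 3 in adipose tissue, 2 in lungs and 0 in livers and hypothalami, and 0 fell in any tissue. All 11 belong to the list of other ATF4 genes, so these are among the 18, 15, 11 and 13 risers counted for it in muscle, adrenals, adipose tissue and lungs, and 21.6%, 9.23%, 3.87% and 9.51% of all genes rose in those tissues. Of 16 other mitochondrial synthetase genes, 0 rose and 6 fell in ozone adrenals, with a median log2 fold change of −0.39. In ozone muscle 4 rose and 0 fell, with a median of 0.17. Of all genes, 9.38% fell in adrenals and 21.6% rose in muscle, so the count of risers in muscle was near that share. Of these synthetases, 0 rose and 2 fell in lungs, where 8.18% of all genes fell. In livers 1 rose (beside 6.74% of all genes) and 0 fell, and in hypothalami and adipose tissue 0 were called by limma. Of the genes that neighbour Sars2 in the RefSeq annotation, 2 of 4 tested rose in ozone adrenals (beside 9.23% of all genes). In ozone muscle 2 of 3 rose (beside 21.6%), where Nfkbib had 1.18 and Sirt2 0.63. In the other 4 tissues 0 of 3 were called by limma. In adrenal Mrps12 averaged 706 ± 178 in ozone adrenals and 174 ± 53.3 in air adrenals (SD, n = 6 and 5; log2 fold change 2.03 ± 0.24, limma adjusted p = 0.000115). Nfkbib averaged 657 ± 119 in ozone adrenals and 242 ± 106 in air adrenals (SD, n = 6 and 5; log2 fold change 1.58 ± 0.31, limma adjusted p = 0.00388).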
